A study of Mus musculus with 2 samples.

Results

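The AMP-activated protein kinase (AMPK) is an energy sensor built from 3 kinds of subunit, and the 9 genes described here encode its subunits and the kinases that switch it on. They were chosen by symbol: the catalytic subunits Prkaa1 and Prkaa2, the scaffold subunits Prkab1 and Prkab2, the nucleotide-binding subunits Prkag1, Prkag2 and Prkag3, and the upstream kinases Stk11 (LKB1) and Camkk2. All 9 were found among the 54532 genes of the count table, and all 9 passed the filter of a mean of at least 1 CPM (a count relative to the scaled depth of its library), which kept 12973 genes. RNA was sequenced from interscapular brown adipose tissue of C57BL/6J mice aged 1 month and labelled male. The rheb BAD KO library came from Ucp1-cre; rheb FL/FL mice, in which the Ucp1 promoter drives Cre recombinase in brown adipocytes, and the control library from rheb FL/FL littermates without that Cre, so both carried floxed alleles of Rheb, the GTPase that activates the mTORC1 kinase. Each library was 1 pool of tissue from 3 mice.

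AMPK is a heterotrimer of a catalytic alpha, a scaffold beta and a regulatory gamma subunit, and binding of AMP or ADP to gamma favours the active form. LKB1 phosphorylates the activation loop of alpha in its complex with the pseudokinase STRAD and the adaptor MO25, and CaMKK2 phosphorylates the same site when calcium is high. Active AMPK switches off fatty acid and sterol synthesis and restrains mTORC1 through TSC2 and Raptor, so it acts on the complex that Rheb activates. The counts measure RNA only and carry no information on phosphorylation or kinase activity.

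The rheb BAD KO library held 23699316 counts over 19457 detected genes, with 27.6% of counts on mitochondrially encoded genes, and the control library 21855229 counts over 20887 genes, with 20.99% on them. With 1 library a group there is no replicate error and no test: every interval below is a 95% counting interval, which leaves out the spread between mice, and PCR copies are not independent molecules. Rheb had 568 counts in the rheb BAD KO library and 1037 in the control library, a ratio of 0.553 (0.499 to 0.613), over all exons and all cells of the tissue. Sex-marker transcripts go against the male label of the control library: Xist had 4 counts in the rheb BAD KO library and 7452 in the control library, while the Y-linked genes Ddx3y, Eif2s3y, Kdm5d and Uty had 259 to 2653 counts in the rheb BAD KO library and 0 or 1 in the control library. Genotype and sex therefore cannot be told apart in any ratio below, although all 9 genes are autosomal. The brown adipocyte label is borne out in both libraries, since the 10 listed markers summed to 133273 counts in the rheb BAD KO library and 125267 in the control library, none at 0. Of these markers 2 were higher, 3 lower and 5 in between. Markers of most other cell types differed: 18 of 18 tested skeletal muscle genes were lower in the rheb BAD KO library. There 6 of 8 macrophage, 4 of 4 tested neutrophil and 5 of 5 erythroid genes were higher. So were 3 of 5 fibroblast and 4 of 4 Schwann cell genes. The endothelial set was not shifted upward: 1 of 5 was higher, 3 lay below control without being called, and the median was -0.19 (log2). Over all genes tested the shares called were 22.9% in each direction, by the rule given below. Of 6 general adipocyte markers 1 was higher, 1 lower and 4 in between.

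A gene was called higher or lower where the ratio of rheb BAD KO over control, scaled by TMM factors, reached 1.5-fold and its interval excluded 1. By that rule 4 of the 9 genes were higher in the rheb BAD KO library (Stk11, Prkag2, Prkab1 and Prkab2), 1 was lower (Prkaa2) and 4 lay in between. Of all 12973 genes tested, 22.9% were higher and 22.9% lower by the same rule, 45.8% in all, so a called gene is common in this table. The median log2 ratio of the 9 genes was 0.34, beside 0.00 over all genes tested. With scaling by total counts the median of all genes was -0.13, that of the 9 genes was 0.21, and 3 of the 9 were higher and 2 lower; over all genes the split was then 2371 higher and 3695 lower, against 2968 and 2976 with TMM. Scaling by total counts without mitochondrially encoded genes again gave 4 higher and 1 lower of the 9.

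**Figure D1:**
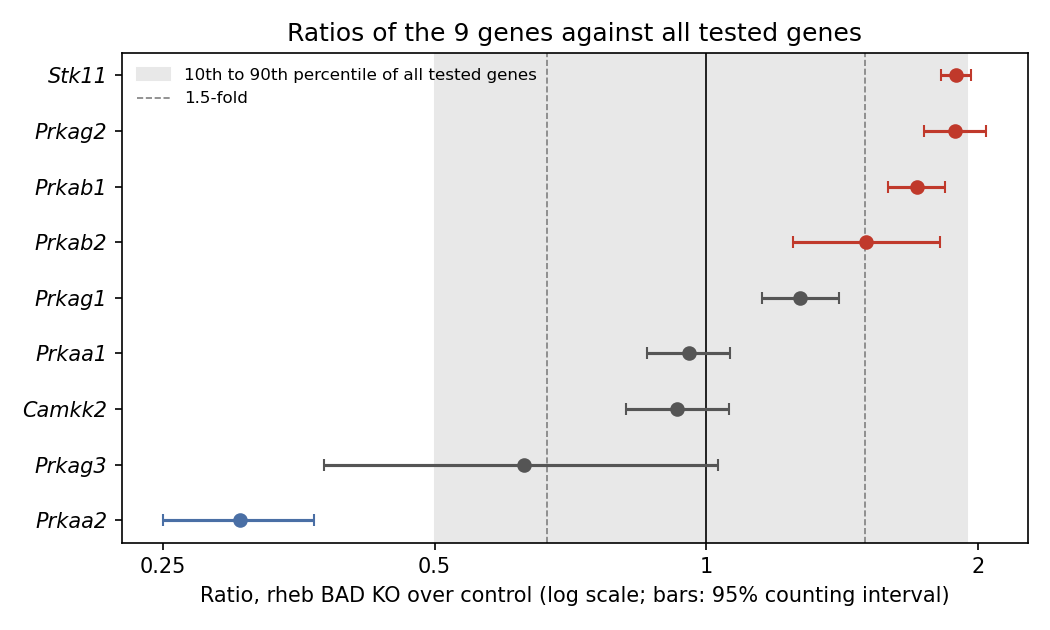
Ratio of rheb BAD KO over control for each of the 9 genes (points, log scale) with its 95% counting interval (bars). Red marks genes called higher, blue the gene called lower and grey those in between; the dashed lines stand at 1.5-fold and the shaded band spans the 10th to 90th percentile of all tested genes, taken on the CPM plus 0.5 scale. Prkaa2, at 0.304, is the only one of the 9 outside that band.

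Prkaa2, which encodes the alpha2 catalytic subunit, was the gene of the 9 with the largest difference. It had 141 counts (6.23 CPM) in the rheb BAD KO library and 468 counts (20.5 CPM) in the control library, 3.29-fold lower (2.72 to 3.996). Only 3.59% of all tested genes had a log2 ratio as low or lower. Prkaa2 (ENSMUSG00000028518) lies on chromosome 4, 105029874 to 105109890, minus strand, mm10. Prkaa1, which encodes the alpha1 catalytic subunit, had 686 counts (30.3 CPM) in the rheb BAD KO library and 725 counts (31.7 CPM) in the control library, a ratio of 0.956 whose interval (0.860 to 1.06) includes 1. With total counts the ratio of Prkaa1 was 0.873 (0.785 to 0.970), and after a correction for GC content 1.09 (0.982 to 1.21). Neither reached 1.5-fold. Prkaa1 (ENSMUSG00000050697) lies on chromosome 15, 5143861 to 5181899, plus strand.

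A ratio of 2 genes within a library needs no scaling factor, so the alpha balance was also taken directly. The Prkaa2 to Prkaa1 ratio was 3.14-fold lower in the rheb BAD KO library (2.52 to 3.92, exact conditional interval). Per kilobase of exon, Prkaa2 made up 10.7% of alpha transcripts in the rheb BAD KO library and 27.4% in the control library. Prkaa1 was thus the more abundant alpha transcript in both libraries. The summed alpha level was 7.29 CPM per kilobase in the rheb BAD KO library and 9.38 CPM per kilobase in the control library, a ratio of 0.777.

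Skeletal muscle, known for its alpha2, beta2 and gamma3 subunits, was the listed cell type whose tested markers were all lower, as Prkaa2 was. Of 10 brown adipocyte markers 3 were lower too (Adrb3 0.266, Elovl3 0.496 and Ebf2 0.507) and 2 were higher. Of 6 general adipocyte markers 1 was lower (Adipoq, 0.567) and 1 higher. The 19 listed muscle markers summed to 9536 counts (0.0402% of the library) in the rheb BAD KO library and 82691 counts (0.378%) in the control library, and 1 of them, Tnnc2, was at 0 in both. Their median log2 ratio was -3.46, against -1.64 for Prkaa2. Prkab2 and Prkag3, the other muscle-type isoforms, had log2 ratios of 0.56 and -0.51. The part of muscle RNA in the Prkaa2 ratio was not tested, and in a bulk sample fewer cells of a type and less RNA per cell cannot be told apart.

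The 250 bases before the annotated starts of the alpha genes are shown because these genes encode the same subunit and only one of them was called, followed by those of Stk11 and Prkab1, both called higher. Sequences are from RefSeq on GRCm38.p6, 5′ to 3′ in the direction of transcription, and capitals mark every match, on either strand, to the GC box GGGCGG, the CCAAT box CCAAT, the CRE core TGACG or the ETS core CCGGAA.
Prkaa2 (chr4:105109899-105110148, minus strand): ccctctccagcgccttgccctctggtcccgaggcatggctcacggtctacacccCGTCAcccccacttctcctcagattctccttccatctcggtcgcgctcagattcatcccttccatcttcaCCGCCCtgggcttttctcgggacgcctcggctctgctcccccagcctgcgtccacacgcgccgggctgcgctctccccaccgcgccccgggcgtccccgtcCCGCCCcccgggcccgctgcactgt
Prkaa1 (chr15:5143611-5143860, plus strand): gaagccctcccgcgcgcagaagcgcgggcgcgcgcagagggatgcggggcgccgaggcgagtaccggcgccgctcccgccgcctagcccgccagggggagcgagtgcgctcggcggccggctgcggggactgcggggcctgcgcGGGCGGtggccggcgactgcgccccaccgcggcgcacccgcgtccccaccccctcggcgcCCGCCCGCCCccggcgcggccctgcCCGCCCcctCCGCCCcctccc
Stk11 (chr10:80115545-80115794, plus strand): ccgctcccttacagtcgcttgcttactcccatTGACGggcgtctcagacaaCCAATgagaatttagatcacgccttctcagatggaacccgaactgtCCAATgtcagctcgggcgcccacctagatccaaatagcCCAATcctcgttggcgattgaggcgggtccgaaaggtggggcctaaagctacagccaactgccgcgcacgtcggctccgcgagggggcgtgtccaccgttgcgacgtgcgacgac
Prkab1 (chr5:116024429-116024678, minus strand): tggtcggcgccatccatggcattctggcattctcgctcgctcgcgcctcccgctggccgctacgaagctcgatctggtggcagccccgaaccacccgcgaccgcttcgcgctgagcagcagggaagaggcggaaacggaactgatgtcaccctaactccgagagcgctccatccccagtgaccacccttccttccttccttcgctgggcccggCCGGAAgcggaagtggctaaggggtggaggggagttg

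The Prkaa2 window holds 2 GC boxes and 1 CRE core, and the Prkaa1 window 5 GC boxes, of which a pair overlap each other. The Stk11 window holds 3 CCAAT boxes and 1 CRE core, and the Prkab1 window 1 ETS core. Among 32851 annotated mouse starts, the 250 bases upstream hold a GC box in 32.7%, a CCAAT box in 33.8%, a CRE core in 17.8% and an ETS core in 12.0%. GC content is 70.0% for Prkaa2, 85.2% for Prkaa1, 59.6% for Stk11 and 65.6% for Prkab1, with a median of 52.4% over all starts. All 9 genes matched the RefSeq table, with 11 starts in all. None of the 11 windows holds the E-box palindrome CACGTG (6.02% of all starts do) or the TATA box TATAAA (12.4%), which says only that those letters are not in these windows. The matches are a description and carry no information on which factors bind there.

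**Figure D2:**
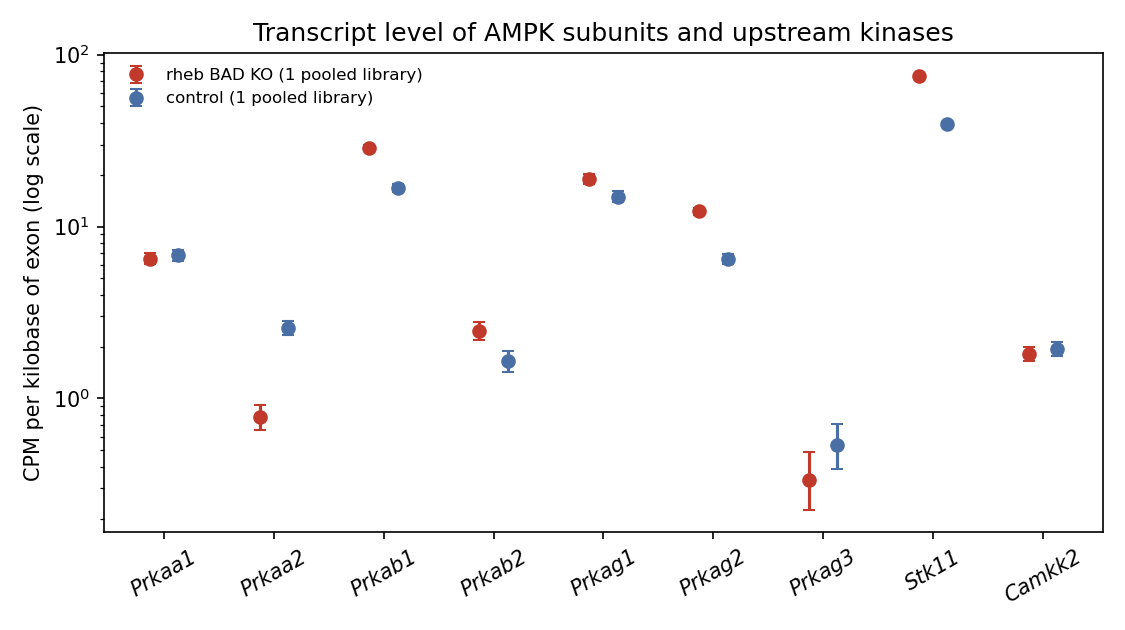
Level of each gene as CPM per kilobase of exon (log scale) in the rheb BAD KO library (red, left of each pair) and the control library (blue, right), 1 pooled library each. Bars are 95% counting intervals; levels run from 0.336 for Prkag3 to 74.7 for Stk11 in the rheb BAD KO library, and from 0.534 to 39.6 for the same genes in the control library.

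Among the scaffold subunits, Prkab1, which encodes beta1, had 1992 counts (88.0 CPM) in the rheb BAD KO library and 1177 counts (51.5 CPM) in the control library, a ratio of 1.71 (1.59 to 1.84). Prkab2, which encodes beta2, had 286 counts (12.6 CPM) in the rheb BAD KO library and 192 counts (8.39 CPM) in the control library, a ratio of 1.504 (1.249 to 1.82). Prkab2 lay at the limit of the size rule, and it did not reach 1.5-fold with DESeq2 size factors (1.49), with total counts (1.37) and after a correction for exon length (1.47). A difference between the beta isoforms was not resolved: the Prkab2 to Prkab1 ratio in the rheb BAD KO library was 0.880 of that in the control library, with an interval (0.720 to 1.08) that includes 1. Prkab2 was the minor isoform, at 7.95% of beta transcripts per kilobase in the rheb BAD KO library and 8.94% in the control library. The summed beta level was 31.2 CPM per kilobase in the rheb BAD KO library and 18.4 in the control library, a ratio of 1.69. Prkab1 lies on chromosome 5, 116013586 to 116024508, minus strand, and Prkab2 on chromosome 3, 97658193 to 97673812, plus strand.

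Among the nucleotide-binding subunits, Prkag2, which encodes gamma2, had 1799 counts (79.4 CPM) in the rheb BAD KO library and 963 counts (42.1 CPM) in the control library, a ratio of 1.89 (1.74 to 2.04). Prkag1, which encodes gamma1, had 935 counts (41.3 CPM) in the rheb BAD KO library and 743 counts (32.5 CPM) in the control library, a ratio of 1.27 (1.15 to 1.40) that did not reach 1.5-fold. Prkag3, which encodes the gamma3 isoform of fast skeletal muscle, had 28 counts (1.24 CPM) in the rheb BAD KO library and 45 counts (1.97 CPM) in the control library, a ratio of 0.628 whose interval (0.378 to 1.03) includes 1. At this depth a difference in Prkag3 was not detectable with TMM scaling, while with total counts its ratio of 0.574 (0.345 to 0.940) was called lower, as it was after a correction for GC content (0.593, 0.356 to 0.971).

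Within the gamma class, the Prkag2 to Prkag1 ratio was 1.48 times as high in the rheb BAD KO library as in the control library (1.31 to 1.68). Prkag2 made up 38.8% of gamma transcripts per kilobase in the rheb BAD KO library and 29.6% in the control library, and Prkag1 made up 60.1% in the rheb BAD KO library and 68.0% in the control library. The order of these shares rests on exon lengths of 6480 bases for Prkag2 and 2175 for Prkag1. By counts alone Prkag2 was above Prkag1 in both libraries. Prkag3 made up 1.06% in the rheb BAD KO library and 2.43% in the control library, and its ratio to Prkag1 was 2.02-fold lower (1.22 to 3.40). The summed gamma level was 31.6 CPM per kilobase in the rheb BAD KO library and 22.0 in the control library, a ratio of 1.44. The library kit does not mark strand, and 43.7% of the exon bases of Prkag1 are shared with the antisense gene B130046B21Rik (23 counts in the rheb BAD KO library, 25 in the control library), so the level of Prkag1 is uncertain. Prkag1 lies on chromosome 15, 98812797 to 98831521, and Prkag3 on chromosome 1, 74738922 to 74749221, both on the minus strand. For Prkag2, 12.3% of exon bases are shared with the antisense gene Prkag2os2 (5 counts in the rheb BAD KO library, 27 in the control library). RefSeq lists 3 starts for Prkag2, which encode gamma2 proteins of different length, and counts per gene do not separate them.

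**Figure D3:**
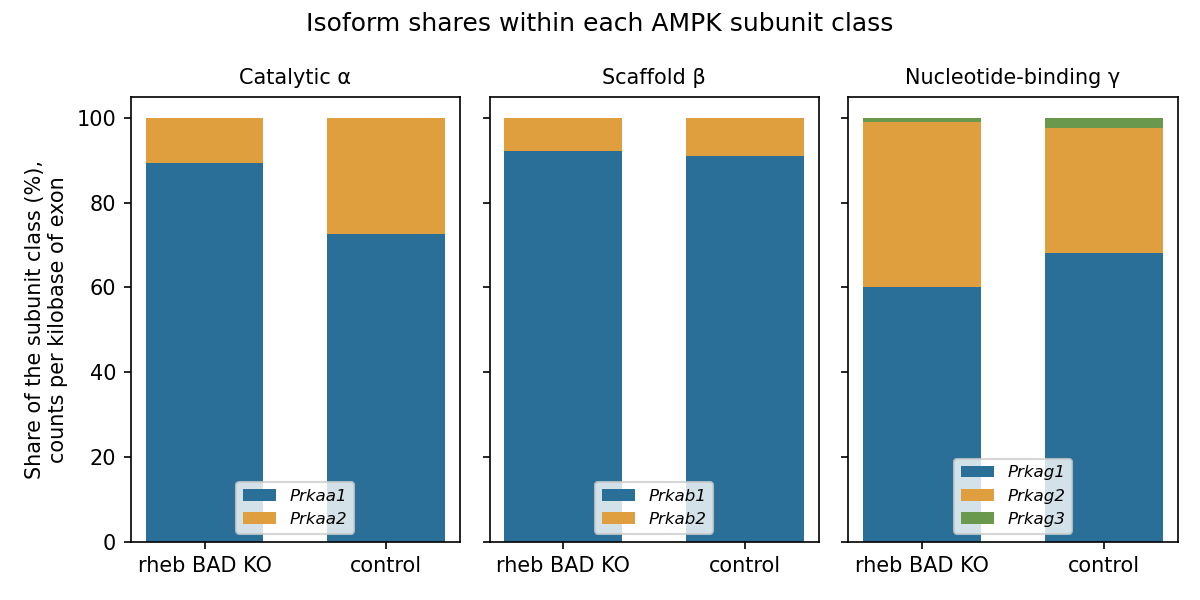
Share of each isoform within its AMPK subunit class (%), from counts per kilobase of exon, in the rheb BAD KO library (left bar) and the control library (right bar). Prkaa2 takes 10.7% of the alpha bar in the rheb BAD KO library and 27.4% in the control library, while the beta shares differ by 0.986 percentage points.

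Of the upstream kinases, Stk11 was the most abundant of the 9 genes in both libraries. It had 7749 counts (342 CPM) in the rheb BAD KO library and 4143 counts (181 CPM) in the control library, a ratio of 1.89 (1.82 to 1.96), and 10.98% of all tested genes had a log2 ratio as high or higher. Stk11 (ENSMUSG00000003068) lies on chromosome 10, 80115803 to 80130682, plus strand. Its longest annotated transcript has a GC content of 59.5%, and ratios differed with GC content across the table. The median log2 ratio was 0.33 among genes of the GC range that holds Stk11 and -0.19 among genes of the range that holds Prkaa1 and Prkaa2. After subtraction of those medians the ratio of Stk11 was 1.4997 (1.44 to 1.56), just under 1.5-fold, and that of Prkaa2 was 0.348. Stk11 shares 5.07% of its exon bases with Cbarp on the opposite strand, which had 262 counts in the rheb BAD KO library and 92 in the control library.

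Camkk2, the calcium-dependent AMPK kinase, had 447 counts (19.7 CPM) in the rheb BAD KO library and 486 counts (21.2 CPM) in the control library, a ratio of 0.929 whose interval (0.815 to 1.06) includes 1. With total counts its ratio was 0.848 (0.744 to 0.966), and after a correction for GC content 0.876 (0.769 to 0.998). Both intervals exclude 1, but neither ratio reached 1.5-fold. Camkk2 lies on chromosome 5, 122731170 to 122779409, minus strand.

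Ordered by level per kilobase of exon, the genes of the rheb BAD KO library ran Stk11, Prkab1, Prkag1, Prkag2, Prkaa1, Prkab2, Camkk2, Prkaa2 and Prkag3, and no neighbours in that order had overlapping counting intervals. The order in the control library was Stk11, Prkab1, Prkag1, Prkaa1, Prkag2, Prkaa2, Camkk2, Prkab2 and Prkag3. There the intervals of Prkab1 and Prkag1 overlapped, as did those of Prkaa1 and Prkag2 and those of Camkk2 and Prkab2. Prkaa2 stood at 0.781 CPM per kilobase in the rheb BAD KO library and 2.57 in the control library, below Prkab2 (2.48) in the rheb BAD KO library and above it (1.65) in the control library. Exon length here is that of all annotated exons of a gene, so a gene that uses few of its exons in this tissue is given too low a level.

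Prkag2 (chromosome 5, 24862744 to 25100642, minus strand) lies beside Rheb, with 20119 bases between them. Within 500000 bases of Rheb 19 other genes besides Prkag2 were tested, of which 3 were higher, 3 lower and 13 in between. Among all genes tested, 22.9% were higher and 22.9% lower. Whether the calls around Rheb differ from those shares was not tested. Slc4a2, an anion exchanger gene with a log2 ratio of 0.92, and Agap3 (0.75) and Asic3 (0.69) were higher, while Atg9b (-2.88), Asb10 (-1.33) and Chpf2 (-0.58) were lower. These 6 genes were named after their values were seen. All 6 lay at lower coordinates than Rheb, as did most of the genes tested in this window. The only genes tested at higher coordinates than Prkag2 were 2900005J15Rik, Galnt11 and Kmt2c, all in between, so no difference between the sides can be read from them.

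**Figure D4:**
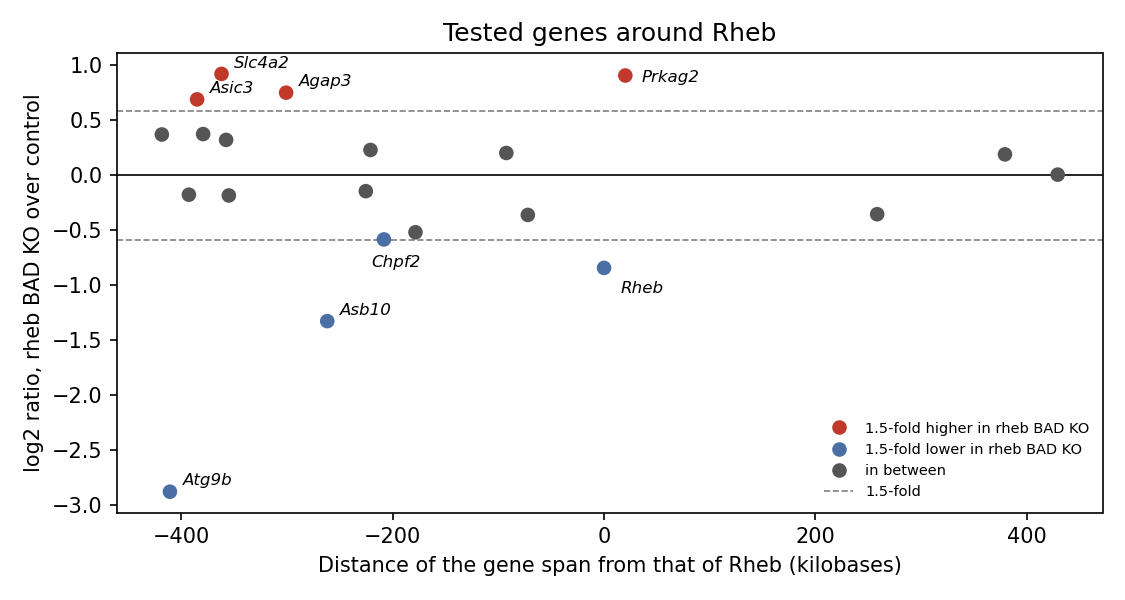
Log2 ratio of rheb BAD KO over control (vertical axis, CPM plus 0.5) against the distance of each tested gene from Rheb (horizontal axis, kilobases; negative values lie at lower coordinates). Prkag2, at 0.91, is the only one of the few genes at higher coordinates that was called higher. Dashed lines mark 1.5-fold.

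Other genes act on AMPK from upstream. Of 8 tested genes among 9 listed upstream regulators, 1 was higher and 3 were lower, beside 45.8% called in either direction among all genes, with a median log2 ratio of -0.42. Stradb, which encodes a STRAD pseudokinase of the LKB1 complex, had 365 counts in the rheb BAD KO library and 1079 in the control library, a ratio of 0.342 (0.303 to 0.385). Cab39l, which encodes an MO25 adaptor of the same complex, had 464 counts in the rheb BAD KO library and 744 in the control library (0.630, 0.560 to 0.708). The alternative partners Strada (252 counts in the rheb BAD KO library, 256 in the control library) and Cab39 (1459 in the rheb BAD KO library, 1812 in the control library) lay in between. Ppm1a, a protein phosphatase that can act on AMPK, was lower (0.581, 0.545 to 0.620), and Camkk1, the paralog of Camkk2, was higher on 77 counts in the rheb BAD KO library against 25 in the control library (3.11, 1.96 to 5.10).

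LKB1 also activates many kinases of the AMPK-related family. Of 13 listed, 10 were tested, 3 were higher and none was lower, beside 22.9% in each direction among all genes, with a median log2 ratio of 0.33. Sik1, a salt-inducible kinase whose transcription is induced by cAMP, had 3714 counts in the rheb BAD KO library and 1351 in the control library, a ratio of 2.78 (2.61 to 2.96). Nuak2 had 78 counts in the rheb BAD KO library and 27 in the control library, a ratio of 2.92 (1.86 to 4.70), and Sik3 had a ratio of 1.56 (1.43 to 1.70). Snrk, the most abundant of these kinases by counts, had 6574 counts in the rheb BAD KO library and 6131 in the control library, a ratio of 1.08.

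Of 25 listed genes whose products are reported substrates of AMPK, 24 were tested, 7 were higher and 2 lower, with a median log2 ratio of 0.23. The share called higher is near the 22.9% of all genes, and the share called lower is below the 22.9% lower among all genes. The largest ratios belonged to transcriptional regulators. Mlxipl (ChREBP) had 53584 counts in the rheb BAD KO library and 21704 in the control library, a ratio of 2.49 (2.45 to 2.53). Ppargc1a, the coactivator PGC-1alpha, had a ratio of 2.38 (2.25 to 2.52), Srebf1 2.27 (2.21 to 2.34) and Crtc2, a CREB coactivator, 2.21 (2.04 to 2.38). The acetyl-CoA carboxylase genes Acaca (0.776) and Acacb (0.940), whose products are the classic AMPK substrates, and Tsc2 (0.875) and Rptor (0.880), which link AMPK to mTORC1, lay in between. These 4 were named for their role and not by size.

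Genes listed as adenine nucleotide enzymes, several of whose products act on the AMP that AMPK senses, were mostly lower. Of 12 listed, 11 were tested, 7 were lower and 1 was higher, with a median log2 ratio of -0.78, beside 22.9% lower among all genes. Ampd1, the muscle isoform of AMP deaminase, had 40 counts in the rheb BAD KO library and 241 in the control library, 5.97-fold lower. Adk, adenosine kinase, had 420 counts in the rheb BAD KO library and 1157 in the control library (0.367, 0.327 to 0.410). The adenylate kinase genes Ak1 and Ak4 were lower, with ratios of 0.433 (0.391 to 0.478) and 0.396 (0.264 to 0.581). Skeletal muscle markers, at 9536 counts in the rheb BAD KO library and 82691 in the control library, differed in the same direction, and their part in these ratios was not tested.

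**Figure D5:**
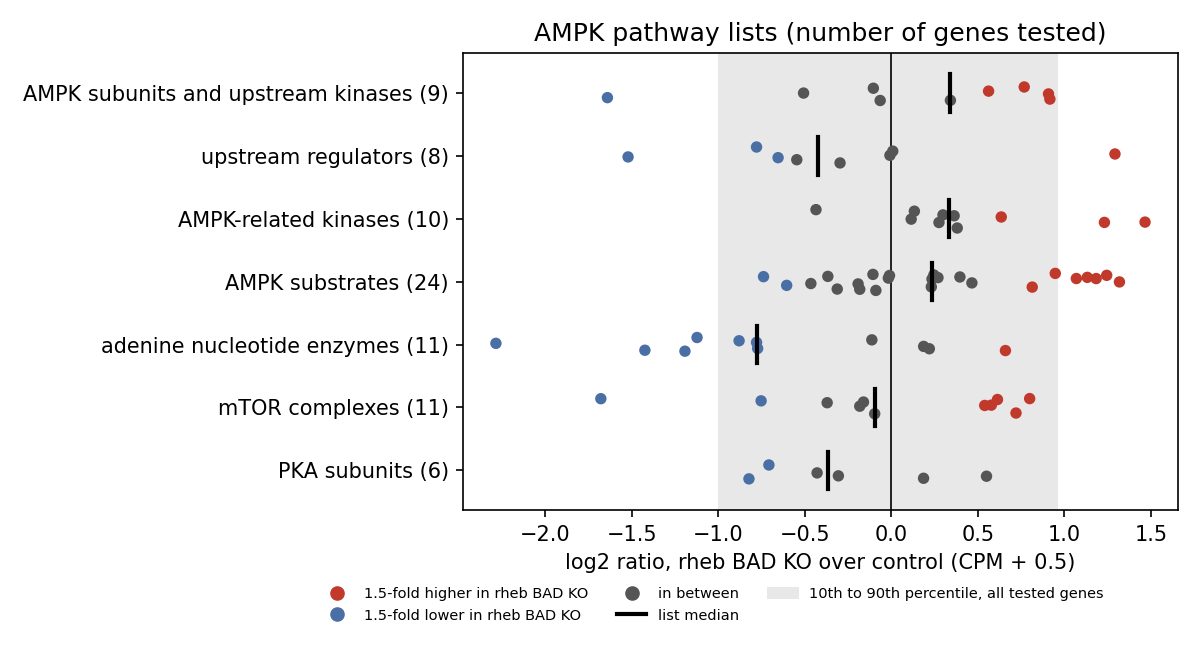
Log2 ratio of rheb BAD KO over control (CPM plus 0.5) for each tested gene (points) of the 9 genes, 4 AMPK pathway lists and 2 compared kinase groups, with the number of genes tested in brackets. Black bars are list medians, which run from -0.78 for adenine nucleotide enzymes to 0.34 for the AMPK subunits and upstream kinases; the shaded band spans the 10th to 90th percentile of all tested genes.

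Beside the 9 genes, the 11 genes of the mTOR complexes had 5 higher and 2 lower, with a median log2 ratio of -0.10, and the 6 PKA subunit genes had none higher and 2 lower, with a median of -0.37, both to be read against 22.9% higher and 22.9% lower among all genes. Rptor is also among the listed substrates. With 1 library a group these differences were not tested.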

How the data were processed

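Per the labels' protocols, RNA was extracted with Trizol and libraries were made with the TruSeq RNA v2 kit, which does not mark strand. The values the authors deposited are raw read counts for each Ensembl gene. Per the submitters' processing notes, Trimmomatic, HISAT2 and featureCounts were used with mm10; their versions, the annotation release and how reads shared between genes were counted: not given in the sources used here. The length column, per the file headers in bases, equals the union of the listed exons in all 54532 rows, and for the 9 genes it equals that of GENCODE M21 (GRCm38).

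Counts were scaled with edgeR 4.0.16 TMM factors to CPM. Ratios are of scaled counts, with 95% exact Clopper-Pearson intervals; log2 ratios use CPM plus 0.5, which understates low genes. Against 0 counts a floor of 3 was used. Where a symbol had several identifiers, the one with most counts was taken. On counts simulated with Poisson error only, for 12864 genes, the intervals held the true ratio in 95.5% of cases. The intervals assume that same error, so this checks the calculation and not the spread between mice. Software was scipy 1.17.1, pandas 2.3.3 and numpy 2.4.6 under Python 3.11.15, and DESeq2 1.42.0 under R 4.3.3.

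The 9 genes and all lists were chosen with earlier results of these data known. Genes named from each pathway list are up to 4 called members with the largest absolute log2 ratio; other names were chosen for their role or after their values were seen. A list of genes with a like pattern cannot be had from 2 libraries. The alternatives were 4 other scalings, 2 filters, 2 pseudocounts, 2 fold limits and protein-coding genes only; corrections for GC content and exon length, each with 20 bins, were chosen after seeing the data.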

Additional observations from a re-analysis of the deposited data

How the results depend on the processing

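No paired analysis was possible because the 2 libraries are single pools, and for the same reason leaving out a replicate was not run. The direction of the called genes Prkaa2, Prkab1, Prkab2, Prkag2 and Stk11 was the same in all 13 settings run. Only the 4 other scalings and the corrections for GC content and exon length could move a ratio. Filters, pseudocounts, fold limits and the restriction to protein-coding genes leave every ratio unchanged. The ratio of Prkaa2 ranged between 0.278 and 0.348 and was called lower in each of the 13 settings. The count of 4 higher was 3 with total counts, DESeq2 size factors and either correction, 5 at the lower fold limit, where Prkag1 was added, and 0 at 2-fold; the count of 1 lower was 2 with total counts and with the GC correction, where Prkag3 was added. Over all genes, 1442 were higher and 1516 lower at 2-fold, by construction of the limit, and 1611 and 1552 with a filter of 10 CPM, which tested 7745 genes. That filter left out Prkag3, whose 28 counts in the rheb BAD KO library and 45 in the control library limit its interval. GENCODE M21 exon lengths were identical for these genes, so that alternative could not change a share.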
